A study of Mus musculus with 12 samples.

Results

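DNBS (dinitrobenzene sulfonic acid), a hapten that inflames the colon when given as an enema, was compared with a saline enema over both drug arms of the study. Libraries were assigned by their group labels, and 12 of the 12 libraries entered the comparison, 6 of them from mice given DNBS and 6 from mice given saline. The groups were Saline_Vehicle, DNBS_Vehicle, Saline_GR159897 and DNBS_GR159897, with 3 libraries each. All mice were C57BL/6 of the genotype Sox10::CreERT2+/- / Rpl22tm1.1Psam/J, in which tamoxifen lets Cre recombinase, made where Sox10 is active, switch on a tagged form of the ribosomal protein Rpl22. Every group received tamoxifen in its chow (400 mg/kg) over 2 weeks, followed by 1 week on plain chow. The enema was 0.1 mL of saline, or 5 mg of DNBS in 50% ethanol. No ethanol is listed for the saline enema, so an effect of DNBS and one of ethanol cannot be told apart. Daily injections over 3 days from 24 hours before the enema held GR159897 (0.5 mg/kg), an antagonist of the neurokinin-2 receptor, in 0.1% DMSO, or 0.1% DMSO alone. Myenteric plexus of the distal colon was taken 48 hours after the enema and tagged ribosomes were pulled down with their RNA. The DNBS libraries came from 3 males and 3 females and the saline libraries from 4 males and 2 females; the labels used here give no age. Of 24394 gene symbols, 12777 with at least 1 FPKM (fragments counted per kilobase of transcript and scaled by the mapped total) in at least 3 libraries were tested.

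Enteric glia ensheathe the neurons of the myenteric plexus, the nerve network between the muscle layers of the gut wall. In an inflamed gut, glia and other resident cells can release cytokines and chemokines that recruit neutrophils and monocytes, and injured tissue rebuilds its matrix under the control of proteases and their inhibitors. Sox10 is also active in Schwann cells, so a tag switched on through it is not limited to one kind of glia.

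The pulled-down RNA held the markers of glia and of other cells. Summed over the list of enteric glia markers, FPKM reached 4155 to 8811 in saline libraries and 35.0 to 6070 in DNBS libraries, of which 2498 was the lowest once DNBS_GR159897 replicate 1 was left out. Smooth muscle markers summed to 1765 to 4502 and 313 to 6882, neuronal markers to 325 to 432 and 52.7 to 635, and lymphocyte markers to at most 0.94 and 3.01. None of 6 mast cell markers was found by its symbol among the annotated loci, so they could not be assessed. DNBS_GR159897 replicate 1 stood apart: it had the lowest sums of glial, neuronal and muscle markers and an epithelial sum of 1777 against 0.91 to 82.4 in the other DNBS libraries and 5.49 to 64.2 with saline. The share of all summed FPKM that fell on loci with an annotated transcript was lower with DNBS, at 22.6, 60.5 and 84.0% (lowest, median and highest) against 75.4, 86.1 and 95.1%, a difference in means of −26.1 percentage points (exact permutation within drug arms, two-sided p = 0.0100, the smallest possible being 0.00500). Between 10325 and 11157 genes reached 1 FPKM per library. Depth is unknown, since the table gives no counts. In RNA pulled down from a mixed tissue, fewer cells of a type, less RNA per cell and a change in what the pull-down recovers cannot be told apart.

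**Figure D1:**
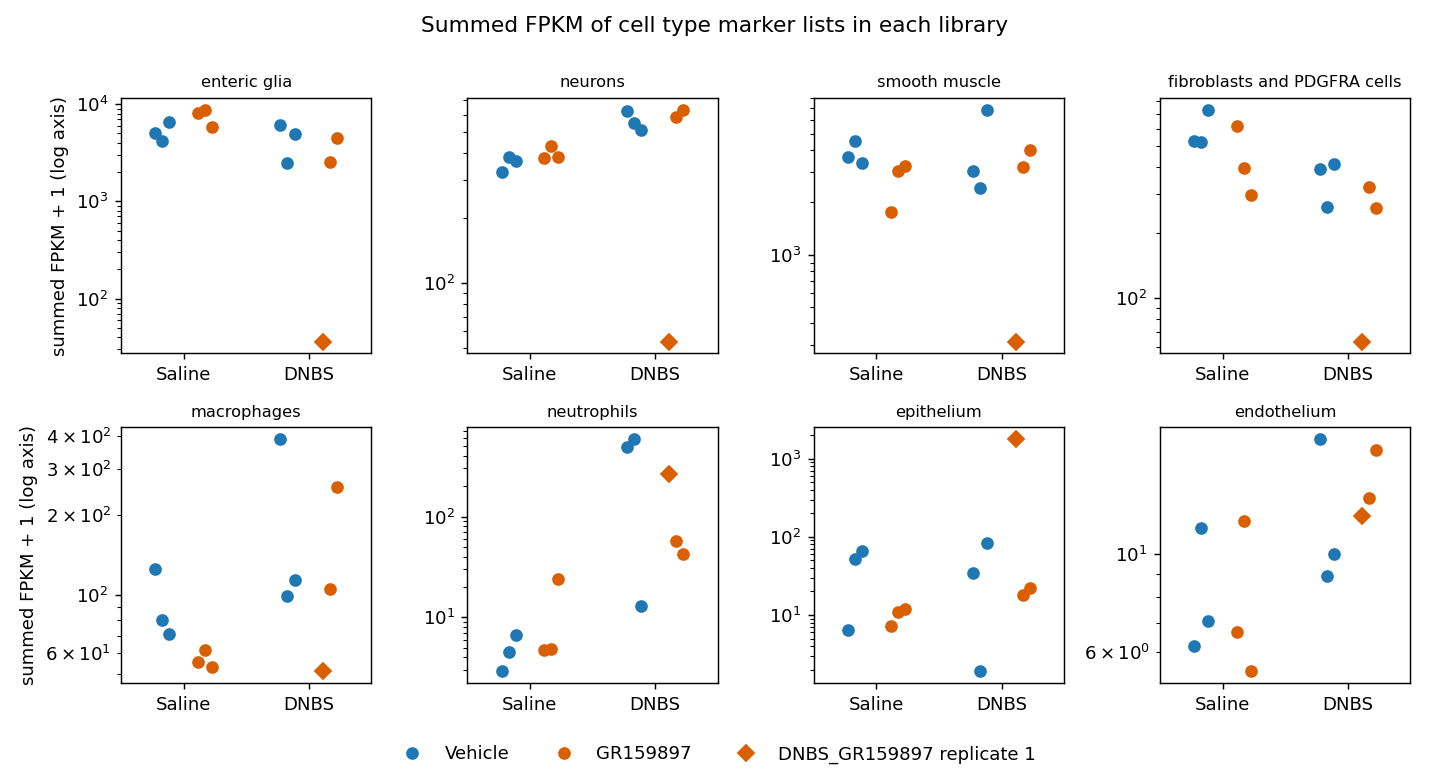
Summed FPKM + 1 (log axis) of 8 cell type marker lists in each of the 12 libraries, by enema; blue points are the vehicle arm, orange points the GR159897 arm, and the orange diamond is DNBS_GR159897 replicate 1. The diamond is the lowest point for glia (35.0), neurons (52.7), smooth muscle (313) and fibroblasts (62.2), and the highest for epithelium (1777).

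Between the enemas, 1306 of 12777 genes, or 10.2%, differed (limma, adjusted p under 0.05). Of these, 375 rose (2.93% of those tested) and 931 fell (7.29%). The change was at least 1 on the log2 scale for 1158 of them. Of the rises, 109 were among 362 genes that no saline library held at 1 FPKM, and 83 of the falls among 235 that no DNBS library did; such genes entered the test through 1 enema alone, so the filter favours their direction. In 222 genes (1.74%) every DNBS library lay above every saline library, and in 548 (4.29%) every DNBS library lay below, among them 180 and 441 of the genes past the threshold. The balance of rises and falls depended on the scaling: rises made up 28.7% of the called genes as deposited, 38.2% when each library was scaled to its annotated total, 50.2% after quantile normalisation, 45.8% when unannotated loci were added to the test and 74.0% of 173 genes with the annotated share as a covariate. Over all 12777 genes the median change was −0.18 on the log2 scale as deposited, −0.03 when scaled to the annotated total and 0.01 after quantile normalisation, so a list's median is read against −0.18. Past the threshold or not, 4959 of the 12777 genes were higher and 7818 lower, and a list's counts of higher and lower members are read against these. The counts fell to 541, 548 and 687 without Saline_Vehicle replicate 3, Saline_GR159897 replicate 1 and Saline_GR159897 replicate 3, and to 792 without Saline_Vehicle replicate 1. No gene called in the comparison changed its direction in any of the fits, and 452 (149 higher, 303 lower) passed in all 12 fits that left out 1 library each. Without DNBS_GR159897 replicate 1, 1430 genes passed (552 higher, 878 lower). For a gene below that did not pass in all 12 fits, the libraries whose omission kept or ended the call are named, with the adjusted p of the fits in which it did not pass.

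**Figure D2:**
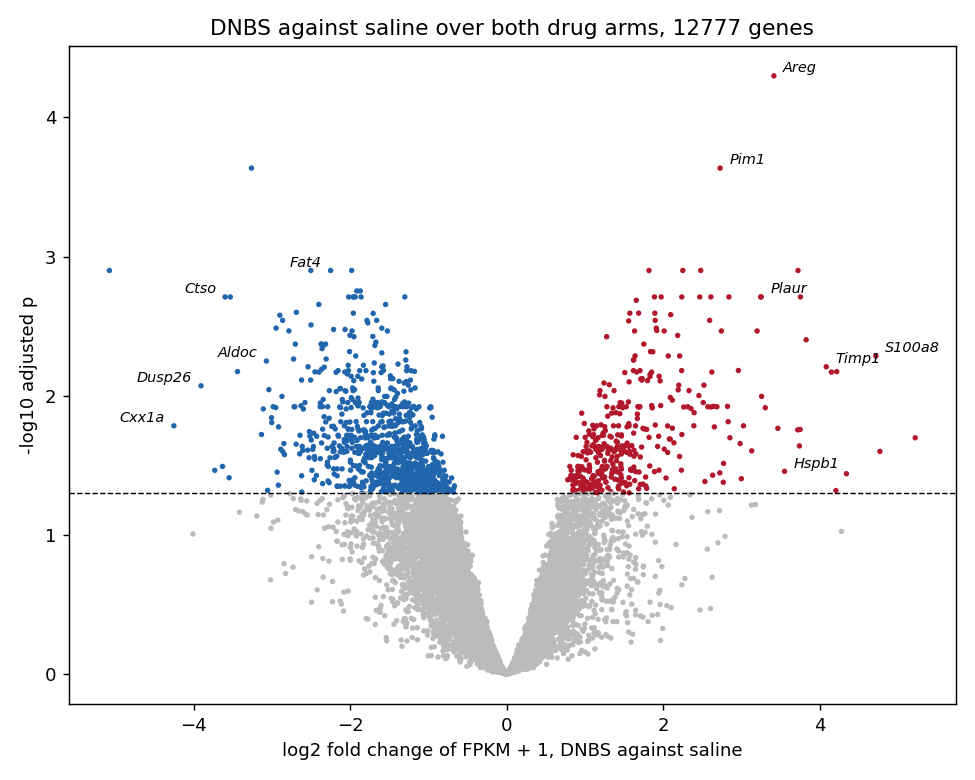
Each point is 1 of 12777 genes; the horizontal axis is the log2 fold change of FPKM + 1 (DNBS against saline, both drug arms) and the vertical axis −log10 of the adjusted p, with red and blue for genes higher and lower past the threshold of 0.05 (dashed line). Areg lies at the top with a change of 3.42 and an adjusted p of 5.04e-05, and genes that fell (931) outnumber those that rose (375).

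The gene with the smallest p was Areg (amphiregulin), a ligand of the epidermal growth factor receptor that is released in injured tissue. In the saline libraries it was listed at 0, 0.31 and 0.87 FPKM (lowest, median and highest, as throughout) and in the DNBS libraries at 6.79, 14.0 and 20.3 FPKM. Every DNBS library lay above every saline library, and the log2 fold change was 3.42 ± 0.26 (SE; n = 6 and 6 libraries, adjusted p = 5.04e-05). The change was 3.42 ± 0.39 in the vehicle arm and 3.42 ± 0.39 in the GR159897 arm. Its relative Ereg (epiregulin), whose exons overlap a gene on the other strand, rose by 1.46 ± 0.36 (adjusted p = 0.0245, range 0.04 to 1.46 FPKM with saline and 1.55 to 9.62 with DNBS) with no overlap. Ereg did not pass without Saline_Vehicle replicate 3 or Saline_GR159897 replicate 1 (0.0611 to 0.0614). Erbb3, the neuregulin receptor that glia depend on, fell by 1.18 ± 0.33 (adjusted p = 0.0406), from 22.0, 25.6 and 31.5 FPKM with saline to 5.52, 9.39 and 28.8 with DNBS. Its groups overlapped. Erbb3 passed only without DNBS_Vehicle replicate 2 or DNBS_GR159897 replicate 1 (otherwise 0.0584 to 0.0909), and did not pass when scaled to the annotated total (0.0712) or after quantile normalisation (0.101). In the list of this growth factor family 7 of 8 genes were higher, 2 past the threshold, and 1 was lower and past it. The median was 0.62; 2 of the 8, Areg among them, entered the test through DNBS libraries alone.

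Areg (gene at chr5:91139599-91148432 on GRCm38, plus strand) is printed with its promoter because it had the smallest p, and Cxcl2, Hspb1 and Ankrd1 because they stand for the chemokine, heat shock and mechanical response genes described next. Each line is the 130 bases just before the RefSeq start on GRCm38.p6, 5′ to 3′ on the gene's strand (chr5:91139469-91139598, chr5:90903769-90903898 and chr5:135887789-135887918 on the plus strand, chr19:36119845-36119974 on the minus strand), with motif letters in capitals.
Areg: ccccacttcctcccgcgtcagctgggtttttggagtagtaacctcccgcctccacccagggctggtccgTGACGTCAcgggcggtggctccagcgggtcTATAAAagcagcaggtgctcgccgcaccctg
Cxcl2: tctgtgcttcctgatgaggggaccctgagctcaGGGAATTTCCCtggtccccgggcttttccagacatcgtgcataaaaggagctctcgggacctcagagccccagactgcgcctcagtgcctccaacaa
Hspb1: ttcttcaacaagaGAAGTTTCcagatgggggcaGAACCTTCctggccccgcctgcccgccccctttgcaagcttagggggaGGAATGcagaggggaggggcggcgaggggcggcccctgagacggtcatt
Ankrd1: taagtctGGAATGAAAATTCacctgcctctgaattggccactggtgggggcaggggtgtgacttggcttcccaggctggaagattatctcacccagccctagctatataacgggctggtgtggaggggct
The capitals in Areg are TGACGTCA, the cAMP response element, starting 61 bases before the start, and a TATA box (TATAAA) at 31. Those in Cxcl2 are a pair of overlapping matches to the NF-kB motif at 97 and 96. In Hspb1 they are the heat shock motif GAANNTTC at 117 and 97 and the TEAD motif GGAATG at 49, and in Ankrd1 GGAATG at 123, which shares its last base with a GAANNTTC match at 118. Motifs were searched on both strands in the 250 bases before each start. GAANNTTC was found in 6.69% of all 32851 promoters in the table, in 4.71% of the 11005 promoters of genes tested, in 5.23% of the 306 promoters of genes that rose and in 6.63% of the 814 of genes that fell; the same 4 shares were 12.64, 10.72, 12.09 and 11.92% for GGAATG. They were 1.55, 2.70, 2.29 and 1.47% for TGACGTCA and 12.37, 6.45, 13.07 and 7.13% for TATAAA. For the NF-kB motif they were 3.90, 4.63, 7.19 and 5.04%, and for the serum response factor motif 1.47, 1.1, 1.31 and 0.74%. TGANTCA (AP-1) was found in 6.75, 4.30, 7.52 and 4.67%, and TTCNNNGAA (STAT) in 7.02, 5.85, 9.15 and 5.04%. These shares were not tested against each other. Of the 15 genes with the largest rise, 11 have a promoter in the table. Among these, S100a9, Saa3, Wfdc17 and Fahd1 held no match to any motif searched. Matches were found before genes with the largest falls too. B2m, Ctso and Tax1bp3 held the NF-kB motif, Art3 held GAANNTTC, and Gbp2, Aldoc and Art3 held GGAATG. A match describes letters and shows no binding.

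Cytokines of the interleukin-6 family, which signal through the shared receptor gp130, and the neutrophil growth factor Csf3 rose from low levels. Il6 (interleukin-6) stood at 0, 0.015 and 0.26 FPKM with saline and at 0.91, 3.77 and 5.71 with DNBS, a log2 fold change of 1.91 ± 0.29 (adjusted p = 0.00327) with no overlap between the groups. Il11 (interleukin-11) rose by 1.62 ± 0.28 (adjusted p = 0.00659, range 0 to 0.45 FPKM with saline and 1.39 to 6.73 with DNBS), again with no overlap. Csf3 rose by 1.56 ± 0.34 (adjusted p = 0.0158, range 0 to 0.14 FPKM with saline and 0.43 to 5.77 with DNBS) with no overlap. Lif, another ligand of the family, rose by 2.09 ± 0.49 (adjusted p = 0.0205), although its lowest DNBS value, in DNBS_GR159897 replicate 1, was 0.01 FPKM, and it did not pass without Saline_Vehicle replicate 3 (0.0520). Of 14 inflammatory cytokines, 5 did not reach the filter and 5 others, with Il6, Il11 and Csf3, entered the test through DNBS libraries alone. Of the remaining 4, 3 were higher and Lif was past the threshold.

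Of the genes known as targets of STAT3 and NF-kB, 7 rose. Pim1, a kinase induced by STAT3 that shares exon sequence with a gene on the opposite strand, was at 0.07, 0.615 and 0.83 FPKM with saline and at 5.16, 9.49 and 12.4 with DNBS. The groups did not overlap, and the change was 2.73 ± 0.26 (adjusted p = 0.000232). Pim1 entered the test through DNBS libraries alone, so the filter favours its rise. Saa3, an acute phase protein, rose by 4.22 ± 0.74 (adjusted p = 0.00671) from 0.04, 0.48 and 9.91 FPKM with saline to 9.11, 32.8 and 140.0 with DNBS, and Saline_GR159897 replicate 3 lay above the lowest DNBS library. Osmr, the oncostatin M receptor subunit, rose by 1.01 ± 0.23 (adjusted p = 0.0199) without overlap, and did not pass without Saline_Vehicle replicate 3 (0.0531). In the list of interleukin-6 and STAT3 response genes 12 of 14 were higher and 4 past the threshold (median 0.86), and 7 were past it when scaled to the annotated total. Nfkbiz, an inducible regulator of NF-kB, was at 0.61, 1.12 and 1.92 FPKM with saline and 4.67, 9.64 and 17.5 with DNBS, with no overlap and a change of 2.24 ± 0.30 (adjusted p = 0.00195). Of 8 NF-kB feedback and target genes 5 were higher and 3 past the threshold, the others being the subunit gene Nfkb2 (1.19 ± 0.35, adjusted p = 0.0437) and the ubiquitin ligase Birc3 (1.34 ± 0.37, adjusted p = 0.0363). Nfkb2 passed only without Saline_GR159897 replicate 2 or DNBS_GR159897 replicate 1 (otherwise 0.0519 to 0.0977), and Birc3 did not pass without Saline_Vehicle replicates 2 or 3, DNBS_Vehicle replicate 1, or Saline_GR159897 replicates 1, 2 or 3 (0.0626 to 0.0804). When scaled to the annotated total Birc3 did not pass (0.0622), which left 2 genes of the list past the threshold. Ptgs2, the inducible enzyme of prostaglandin synthesis (COX-2), rose by 2.40 ± 0.50 (adjusted p = 0.0132, range 0.1 to 0.59 FPKM with saline and 1.02 to 27.8 with DNBS) without overlap, and was the only 1 of 6 genes of that list past the threshold; it entered the test through DNBS libraries alone.

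**Figure D3:**
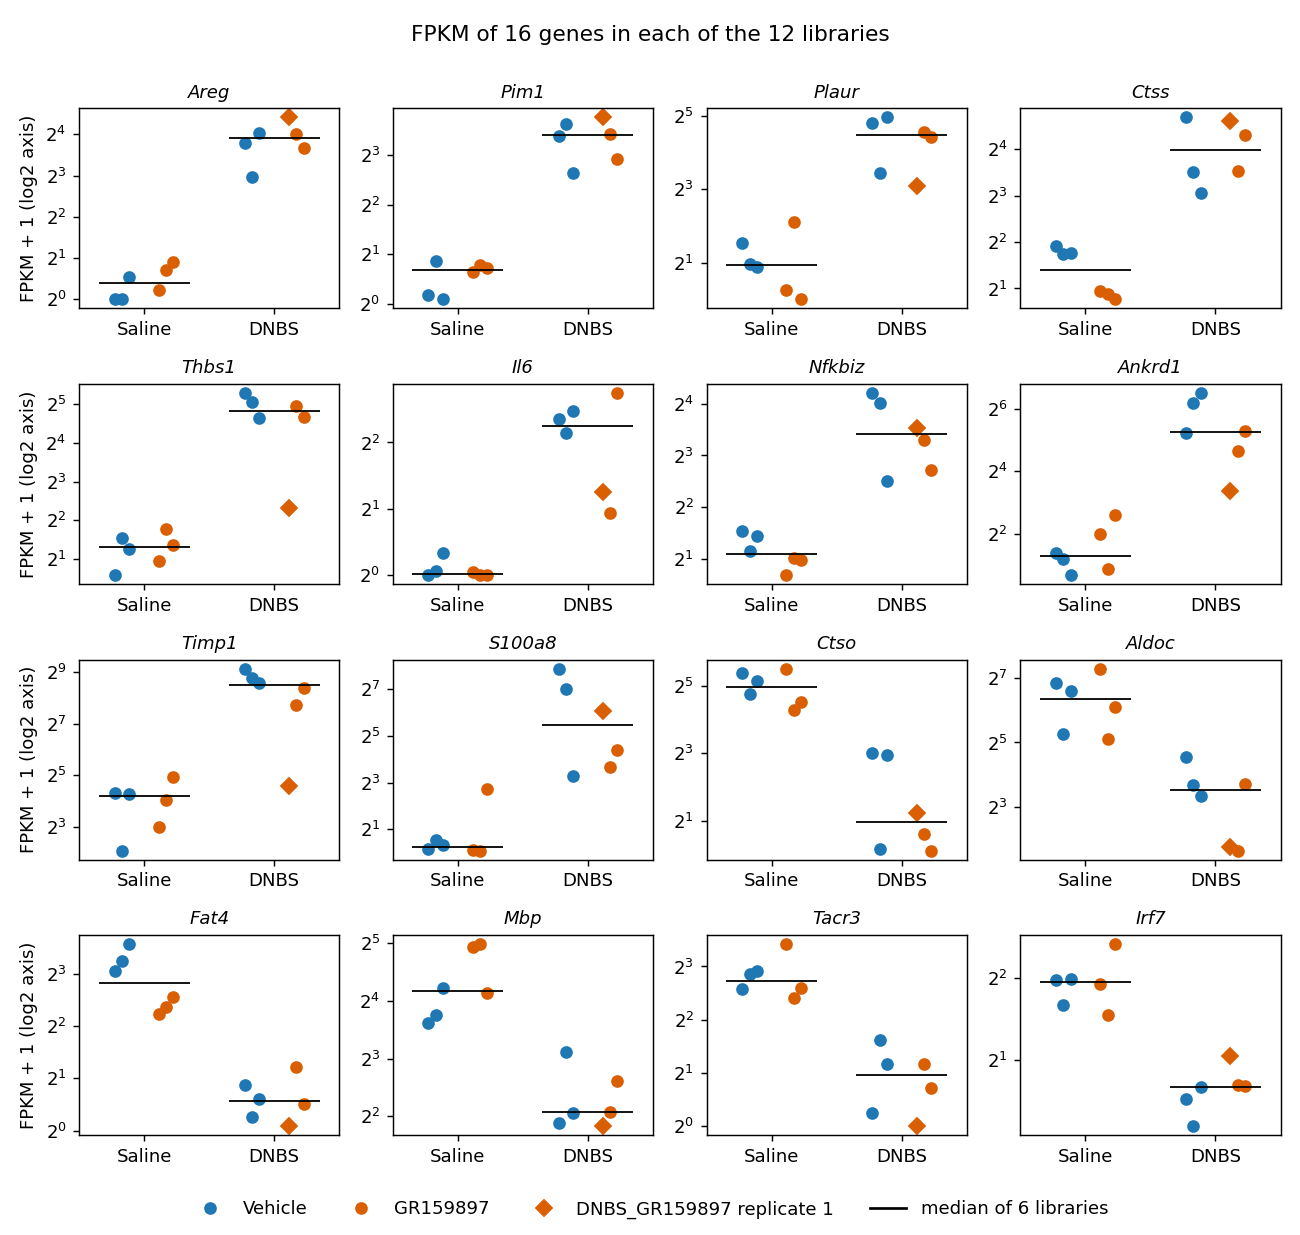
FPKM + 1 (log2 axis) of 16 genes in each of the 12 libraries by enema; blue points are the vehicle arm, orange points the GR159897 arm, the orange diamond is DNBS_GR159897 replicate 1 and the line is the median of 6 libraries. The 16 genes were picked from those past the threshold, so their separation is no result about all genes. In 15 of the 16 the DNBS and saline libraries do not overlap. In Timp1 the diamond (23.4 FPKM) lies among the saline libraries (3.26 to 29.5). Of all 12777 genes, 222 (1.74%) lay wholly above and 548 (4.29%) wholly below the saline libraries.

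Chemokines rose past the threshold in 6 of 13 cases. Cxcl2, which draws neutrophils, was listed at 0, 0.04 and 4.90 FPKM with saline and at 1.29, 16.4 and 73.4 with DNBS (3.47 ± 0.76, adjusted p = 0.0171). A single saline library, Saline_GR159897 replicate 3, held 4.90 FPKM and overlapped the DNBS group. Ccl2 and Ccl7 draw monocytes. Ccl2 went from 6.03, 13.6 and 34.1 FPKM with saline to 11.8, 144 and 695 with DNBS (2.98 ± 0.71, adjusted p = 0.0220) and Ccl7 from 0.23, 1.41 and 8.60 to 1.08, 60.2 and 177 (3.74 ± 0.88, adjusted p = 0.0229). For both, DNBS_GR159897 replicate 1 was the lowest DNBS library and lay within the saline range. Ccl2 did not pass without Saline_Vehicle replicate 3 (0.0530), and Ccl7 did not pass without Saline_Vehicle replicate 3 or Saline_GR159897 replicate 1 (0.0526 to 0.0527). Ccl9 rose by 1.86 ± 0.38 (adjusted p = 0.0122) and Cxcl5 by 1.74 ± 0.39 (adjusted p = 0.0171). Cxcl1, named after its values were seen, was the other chemokine past the threshold (2.53 ± 0.71, adjusted p = 0.0412). It passed only without Saline_GR159897 replicate 3 or DNBS_GR159897 replicate 1 (otherwise 0.0634 to 0.0833). Of 13 chemokines tested 9 were higher, 6 past the threshold, and 4 lower with none past it (1 at an unadjusted p under 0.05). The median was 1.56.

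The plasminogen system, which dissolves clots and matrix, had 2 genes higher and 1 lower past the threshold among the 6 of its list. Of the 2 that rose, 1 (not Plaur) entered the test through DNBS libraries alone. Plaur, the receptor that holds urokinase at the cell surface (chr7:24462484-24475968), went from 0, 0.9 and 3.32 FPKM with saline to 7.45, 21.5 and 30.1 with DNBS (3.25 ± 0.42, adjusted p = 0.00195). The groups did not overlap. Serpine2, a protease inhibitor made by glia, fell by 2.64 ± 0.60 (adjusted p = 0.0192), from 56.1, 107 and 225 FPKM with saline to 1.21, 22.6 and 54.2 with DNBS, and its groups did not overlap. Without DNBS_GR159897 replicate 1 its change was −2.07.

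Matrix proteases, their inhibitor and matrix proteins of wounds formed a further group of rises. Timp1, the secreted inhibitor of metalloproteinases and a known mark of reactive glia (chrX:20870166-20874735), went from 3.26, 17.2 and 29.5 FPKM with saline to 23.4, 358 and 559.9 with DNBS (4.08 ± 0.70, adjusted p = 0.00619). DNBS_GR159897 replicate 1 held the 23.4 FPKM that overlapped the saline libraries, and the other DNBS libraries lay above 200 FPKM. Adamts4, an aggrecanase that shares exon sequence with a gene on the other strand, rose by 2.10 ± 0.30 (adjusted p = 0.00261, range 0 to 1.66 FPKM with saline and 2.80 to 6.76 with DNBS) without overlap. Mmp3 (stromelysin 1) rose by 2.12 ± 0.41 (adjusted p = 0.0107, range 0 to 2.63 FPKM with saline and 2.81 to 17.2 with DNBS) without overlap, and Adamts1 by 2.83 ± 0.61 (adjusted p = 0.0153) with DNBS_GR159897 replicate 1 at the saline level. Of 13 genes in the list of matrix proteases and inhibitors 9 were higher and 5 past the threshold, with a median of 1.02; the fifth was Mmp9 (1.47 ± 0.42, adjusted p = 0.0412), named after its value was seen, which passed only without DNBS_Vehicle replicates 2 or 3, or DNBS_GR159897 replicates 1 or 2 (otherwise 0.0546 to 0.0854). Mmp9 and 1 other of the 13 entered the test through DNBS libraries alone; the median of the other 11 was 0.79.

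Thbs1 (thrombospondin 1), a matrix protein of wounds, was at 0.5, 1.49 and 2.40 FPKM with saline and at 3.95, 27.3 and 38.3 with DNBS. Its groups did not overlap, and it rose by 3.25 ± 0.44 (adjusted p = 0.00195). Spp1 (osteopontin) rose by 1.73 ± 0.32 (adjusted p = 0.00771), Lox (lysyl oxidase, which crosslinks collagen) by 2.33 ± 0.44 (adjusted p = 0.00918), and neither gene's groups overlapped. Tnc (tenascin C) rose by 2.26 ± 0.46 (adjusted p = 0.0120) and Cd44, the hyaluronan receptor, by 2.65 ± 0.59 (adjusted p = 0.0167), each with DNBS_GR159897 replicate 1 in the saline range. Thbs1, Spp1, Lox and Tnc share exon sequence with another gene. Of 13 matricellular and wound matrix genes 2 entered the test through DNBS libraries alone, 1 of them past the threshold. The median of the other 11 was 1.49. Of all 13, 12 were higher, 6 of them past the threshold, with a median of 1.49. The sixth was Vcan (versican; 0.92 ± 0.27, adjusted p = 0.0478), which passed only without DNBS_Vehicle replicate 3 or DNBS_GR159897 replicate 1 (otherwise 0.0632 to 0.110). The gene that was lower was Sparc, and both were named after their values were seen. Sparc is a collagen-binding matrix protein and fell by 2.86 ± 0.71 (adjusted p = 0.0252), from 1093, 3146 and 4654 FPKM with saline to 40.2, 569 and 1116 with DNBS. Sparc did not pass without Saline_Vehicle replicate 3, DNBS_Vehicle replicate 2, or Saline_GR159897 replicates 1 or 3 (0.0508 to 0.0661), and had an adjusted p of 0.488 with the annotated share as a covariate. Of 12 collagens 6 were higher and 6 lower, and the 2 past the threshold, Col14a1 and Col15a1, fell by 1.17 ± 0.30 and 0.94 ± 0.25 (adjusted p = 0.0303 and 0.0336). Col14a1 did not pass without Saline_Vehicle replicates 1 or 3, DNBS_Vehicle replicate 3, or Saline_GR159897 replicates 1 or 2 (0.0510 to 0.0709) and Col15a1 passed only without Saline_Vehicle replicate 2, DNBS_Vehicle replicate 2, or DNBS_GR159897 replicates 1 or 3 (otherwise 0.0581 to 0.0716). Neither passed when scaled to the annotated total (0.0516 and 0.0841), nor did Col15a1 after quantile normalisation (0.0598).

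Among genes of mechanical and thermal stress, Ankrd1, Myh9 and Hspb1 rose. Ankrd1, a muscle and wound protein driven by YAP and TEAD, was at 0.61, 1.44 and 5.13 FPKM with saline and at 9.38, 37.6 and 89.9 with DNBS, without overlap (3.75 ± 0.50, adjusted p = 0.00195). Myh9, the heavy chain of non-muscle myosin, rose by 2.65 ± 0.53 (adjusted p = 0.0119). Ctgf, a well-known target of YAP, did not pass. It was at 66.9, 391 and 918 FPKM with saline and 14.1, 119 and 151 with DNBS (−2.16 ± 0.75, adjusted p = 0.0806), and passed only without Saline_GR159897 replicate 2 (0.0387). In the list of YAP and serum response factor targets 7 of 13 genes were higher and 2 past the threshold. Hspb1, a small heat shock protein that is raised in stressed glia, was at 34.7, 51.9 and 311 FPKM with saline and 37.6, 1597 and 4938 with DNBS. The change was 3.55 ± 0.96 (adjusted p = 0.0348). It passed only without Saline_Vehicle replicate 2, Saline_GR159897 replicate 2, or DNBS_GR159897 replicate 1 (otherwise 0.0582 to 0.0795). DNBS_GR159897 replicate 1 held 37.6 FPKM, within the saline range. No other gene of the 11 chaperones and heat shock proteins passed. Without that library 4 of the 10 then tested passed, Hspb1 among them.

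Mt1 (metallothionein 1), which binds zinc and is induced by stress, went from 135, 471 and 1183 FPKM with saline to 233, 5498 and 12144 with DNBS (3.00 ± 0.84, adjusted p = 0.0394). It passed only without Saline_GR159897 replicate 2 or DNBS_GR159897 replicate 1 (otherwise 0.0510 to 0.0981). In the list of antioxidant and metallothionein genes 8 of 12 were higher and 3 past the threshold, with heme oxygenase Hmox1 (1.00 ± 0.29, adjusted p = 0.0459) and thioredoxin reductase Txnrd1 (0.92 ± 0.25, adjusted p = 0.0352) beside Mt1. Hmox1 passed only without DNBS_GR159897 replicates 1 or 2 (otherwise 0.0606 to 0.101), and Txnrd1 passed only without Saline_Vehicle replicate 2, DNBS_Vehicle replicate 3, or DNBS_GR159897 replicate 1 (otherwise 0.0505 to 0.0842). Hk2, the inducible hexokinase of glycolysis, rose by 2.52 ± 0.47 (adjusted p = 0.00839, range 0.2 to 1.24 FPKM with saline and 2.57 to 38.5 with DNBS) without overlap. It alone passed among 13 glycolysis and hypoxia genes, of which 7 were higher and 6 lower (median 0.01). At an unadjusted p under 0.05 in limma, 1 was higher and 4 were lower. Nr4a1, an immediate early nuclear receptor, fell by 1.98 ± 0.45 (adjusted p = 0.0192) from 22.2, 33.0 and 97.7 FPKM with saline to 2.03, 9.35 and 16.2 with DNBS, while 12 of 14 immediate early genes were higher and 2 past the threshold, Fosl1, a member of AP-1 (1.49 ± 0.36, adjusted p = 0.0241), and Btg2 (1.18 ± 0.32, adjusted p = 0.0363). Fosl1 did not pass without Saline_Vehicle replicate 3 or Saline_GR159897 replicate 1 (0.0562 to 0.0603), and Btg2 passed only without Saline_GR159897 replicate 2, or DNBS_GR159897 replicates 1, 2 or 3 (otherwise 0.0575 to 0.0900). In the integrated stress response list of 10 genes, Gdf15 rose and Psat1, an enzyme of serine synthesis, fell by 1.77 ± 0.41 (adjusted p = 0.0200). Fahd1, a mitochondrial enzyme, was listed at 0 in all 6 saline libraries and at 0, 11.8 and 32.6 FPKM with DNBS (adjusted p = 0.0101). No fold is given against a group at 0. Fahd1 entered the test through DNBS libraries alone, so the filter favours its rise, and its groups overlapped at 0.

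In the pulled-down RNA 4 neutrophil markers and 5 macrophage markers rose. S100a8, a subunit of calprotectin abundant in neutrophils (chr3:90668978-90670035), was at 0.07, 0.185 and 5.59 FPKM with saline and 8.69, 43.1 and 233 with DNBS. The groups did not overlap and the change was 4.72 ± 0.78 (adjusted p = 0.00517). Its partner S100a9 went from 0, 0.15 and 6.09 FPKM with saline to 0.33, 84.2 and 404 with DNBS (4.77 ± 1.16, adjusted p = 0.0251), with DNBS_Vehicle replicate 3 at 0.33 FPKM within the saline range. S100a9 did not pass without Saline_Vehicle replicate 3, Saline_GR159897 replicate 1, or DNBS_GR159897 replicate 1 (0.0530 to 0.0573). Retnlg, a secreted protein of granulocytes, rose by 3.75 ± 0.82 (adjusted p = 0.0174). Wfdc21 rose by 4.15 ± 0.73 (adjusted p = 0.00676) and Wfdc17, a secreted protein of activated macrophages, by 3.31 ± 0.68 (adjusted p = 0.0122). Saline_GR159897 replicate 3 held the highest saline value of S100a8, S100a9, Wfdc21 and Wfdc17. The summed neutrophil markers were at 1.91 to 23.0 FPKM with saline and 11.9 to 586 with DNBS; 6 of 7 were higher and 4 past the threshold (2 without DNBS_GR159897 replicate 1). Of the 7, 4 entered the test through DNBS libraries alone, with Retnlg and Il1r2 among them. The fourth gene past it was Il1r2, the decoy receptor of interleukin-1 (1.69 ± 0.46, adjusted p = 0.0353), which passed only without DNBS_Vehicle replicates 2 or 3, or DNBS_GR159897 replicates 2 or 3 (otherwise 0.0531 to 0.0751).

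Of the macrophage markers, Fcer1g, the signalling chain of Fc receptors, rose by 2.39 ± 0.52 (adjusted p = 0.0164, range 0.59 to 8.57 FPKM with saline and 11.5 to 78.7 with DNBS) without overlap. Cybb, the oxidase of phagocytes, rose by 1.19 ± 0.23 (adjusted p = 0.00918), also without overlap, and the mannose receptor Mrc1 by 1.28 ± 0.26 (adjusted p = 0.0120). Ctss, the cathepsin with which phagocytes process antigens, was at 0.7, 1.63 and 2.78 FPKM with saline and 7.33, 14.7 and 24.6 with DNBS, with no overlap and a change of 2.61 ± 0.35 (adjusted p = 0.00195). Cd68 (1.25 ± 0.32, adjusted p = 0.0291) and the Fc receptor Fcgr1 (1.34 ± 0.37, adjusted p = 0.0383), the latter named after its value was seen, passed too. Cd68 passed only without Saline_GR159897 replicates 2 or 3, or DNBS_GR159897 replicates 1, 2 or 3 (otherwise 0.0504 to 0.0674), and Fcgr1 passed only without Saline_Vehicle replicate 2, DNBS_Vehicle replicate 3, or DNBS_GR159897 replicate 1 (otherwise 0.0510 to 0.0842). Of 12 macrophage markers 11 were higher and 5 past the threshold, with a median of 1.22. Of the 12, 2 entered the test through DNBS libraries alone, 1 of them past the threshold. The median of the other 10 was 1.27. The sum of the markers was 52.5 to 124 FPKM with saline and 50.4 to 387 with DNBS. In DNBS_GR159897 replicate 1 the neutrophil and macrophage sums were 265 and 50.4 FPKM against 35.0 for enteric glia; in the other 5 DNBS libraries the glial sum, which includes Apoe, a gene that macrophages express too, was 2498 to 6070. The part of these cells in the rises of cytokines, chemokines and proteases was not tested. None of 9 epithelial markers passed in limma (0 at an unadjusted p under 0.05 too), and red blood cell markers were higher in 4 of 4 with none past the threshold and 3 at an unadjusted p under 0.05. No lymphocyte marker reached the filter.

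Genes of MHC class I presentation and interferon-stimulated genes were lower in all members tested, 5 of 7 and 4 of 10 past the threshold. B2m (beta-2 microglobulin, the light chain of MHC class I; chr2:122147686-122153083) stood at 357, 1315 and 1864 FPKM with saline and at 10.7, 189.9 and 719 with DNBS (−2.93 ± 0.80, adjusted p = 0.0353). Its groups overlapped through Saline_GR159897 replicate 2, at 357 FPKM. B2m did not pass without Saline_Vehicle replicates 1 or 3, DNBS_Vehicle replicate 2, Saline_GR159897 replicates 1 or 3, or DNBS_GR159897 replicate 2 (0.0585 to 0.0861). H2-K1, a class I heavy chain whose reads may be shared with related class I genes, fell by 2.20 ± 0.54 (adjusted p = 0.0249) and did not pass without Saline_Vehicle replicate 3, or Saline_GR159897 replicates 1 or 3 (0.0522 to 0.0611). The immunoproteasome subunits Psmb8 and Psmb9 fell by 2.33 ± 0.53 and 2.02 ± 0.46 (adjusted p = 0.0193 and 0.0192). Tap2, a subunit of the peptide transporter, fell by 1.28 ± 0.31 (adjusted p = 0.0241), without overlap. It did not pass when scaled to the annotated total (0.0590) or after quantile normalisation (0.0662), and did not pass without Saline_GR159897 replicates 1 or 3 (0.0575 to 0.0580). Psmb8, Psmb9 and Tap2 lie beside each other and share exon sequence with genes on the opposite strand. All 7 class I presentation genes tested were lower, 5 past the threshold, with a median of −2.02 (−1.81 when scaled to the annotated total). With the annotated share as a covariate none of the 5 passed: the change was −0.46 for B2m (adjusted p = 0.735), −0.84 for H2-K1, −1.13 for Psmb8, −2.03 for Psmb9 and −1.31 for Tap2.

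H2-Aa, a chain of MHC class II, fell by 2.35 ± 0.52 (adjusted p = 0.0174) from 6.19, 11.4 and 89.0 FPKM with saline to 0.36, 2.01 and 5.21 with DNBS without overlap. The class II list held 4 of 5 genes lower, and its member that rose was Ctss. Irf7, the regulator of type I interferon genes, was at 1.92, 2.88 and 4.34 FPKM with saline and 0.14, 0.595 and 1.07 with DNBS, without overlap (−1.29 ± 0.22, adjusted p = 0.00553). Oasl2 and Usp18, both induced by interferon, fell by 1.90 ± 0.37 and 1.83 ± 0.38 (adjusted p = 0.0104 and 0.0122). Gbp2, a GTPase induced by interferon gamma, fell by 3.13 ± 0.71 (adjusted p = 0.0190) from 9.68, 37.9 and 126 FPKM with saline to 0.06, 6.20 and 14.9 with DNBS. Of 10 interferon-stimulated genes tested all 10 were lower, 4 past the threshold in each of the 12 fits that left out a library, with a median of −1.44. Irf7, Usp18 and Gbp2 share exon sequence with a gene on the opposite strand.

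Of the glial and Schwann cell genes, Erbb3, Ednrb and Mbp fell, while Sox10 and S100b did not pass. Sox10, whose promoter drives the Cre, was at 15.4, 204 and 248 FPKM with saline and 1.3, 7.92 and 184 with DNBS (−2.98 ± 1.03, adjusted p = 0.0807; 0.0374 as the average of the changes within the arms). It passed without Saline_Vehicle replicate 2 (0.0225) and DNBS_Vehicle replicate 2 (0.0409). Its change was −0.54 ± 1.13 in the vehicle arm and −5.41 ± 1.13 in the GR159897 arm. S100b was at 157, 207 and 288 FPKM with saline and 1.17, 103 and 168 with DNBS (−1.81 ± 0.85, adjusted p = 0.175; 0.0444 without DNBS_GR159897 replicate 1). Gpr37l1, a receptor abundant in glia, was at 286, 501 and 1331 FPKM with saline and 2.43, 165 and 262 with DNBS. Its groups did not overlap, and its adjusted p was 0.0548, or 0.0416 when scaled to the annotated total; it passed without DNBS_GR159897 replicate 1 (0.0113) and DNBS_GR159897 replicate 3 (0.0432). Gfap was left out of the test, since its values were blank in 3 Saline_Vehicle libraries; it was at 184, 236 and 289 FPKM in DNBS_Vehicle, at 89.8, 152 and 323 in Saline_GR159897 and at 0.90, 79.7 and 201 in DNBS_GR159897. Ednrb, the endothelin B receptor, fell by 1.85 ± 0.50 (adjusted p = 0.0352) but passed only without DNBS_Vehicle replicate 2, Saline_GR159897 replicate 2, or DNBS_GR159897 replicate 3 (otherwise 0.0509 to 0.0839), and did not pass when scaled to the annotated total (0.0520) or after quantile normalisation (0.0559). In the enteric glia list 9 of 11 genes were lower, 2 past the threshold, with a median of −1.71, and of −0.94 without DNBS_GR159897 replicate 1. Its median was −0.55 in the vehicle arm and −2.47 in the GR159897 arm, which holds DNBS_GR159897 replicate 1. The difference between these 2 medians was not tested.

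Mbp (myelin basic protein) was at 11.2, 17.1 and 30.5 FPKM with saline and at 2.56, 3.19 and 7.70 with DNBS. All DNBS libraries lay below all saline libraries, and the change was −2.01 ± 0.33 (adjusted p = 0.00481). Omg, an oligodendrocyte and neuronal membrane protein that limits neurite growth, fell by 2.94 ± 0.45 (adjusted p = 0.00327) from 8.43, 17.1 and 53.1 FPKM with saline to 0.53, 1.32 and 6.05 with DNBS, also without overlap. Of 11 myelin and Schwann cell genes 8 were lower and Mbp alone passed. In contrast, 8 of 10 reactive glia genes were higher and 5 passed, Timp1, Hspb1, Cd44, Osmr and the lipocalin Lcn2, with a median of 1.28. The 2 that were lower, Vim and S1pr3, did not pass. All 5 that passed are also members of other lists described above, so they are not a separate set of results. Lcn2 rose by 3.13 ± 0.77 (adjusted p = 0.0248) and did not pass without Saline_Vehicle replicate 3 or Saline_GR159897 replicate 1 (0.0575 to 0.0599). Lcn2 and Timp1 are made by leukocytes, fibroblasts and epithelium too.

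Among the genes with the largest falls, Cxx1a, Dusp26 and Ctso were high in every saline library. Cxx1a, whose reads may be shared with its near-identical neighbour Cxx1b, was at 65.2, 78.1 and 84.8 FPKM with saline and 0, 0.385 and 60.5 with DNBS (−4.25 ± 0.92, adjusted p = 0.0164), and Cxx1b, named for that likeness, changed by −0.46 ± 1.15 (adjusted p = 0.826). Dusp26, a phosphatase of neural cells, was at 61.5, 71.8 and 82.1 FPKM with saline and 0.14, 5.28 and 20.3 with DNBS (−3.90 ± 0.73, adjusted p = 0.00847). Ctso, the lysosomal cathepsin O (chr3:81932601-81956725), was at 18.6, 30.1 and 44.7 FPKM with saline and 0.08, 0.93 and 7.01 with DNBS (−3.60 ± 0.48, adjusted p = 0.00195). In all 3 genes the groups did not overlap, although a DNBS library of Cxx1a reached 60.5 FPKM. Aldoc (aldolase C, the glial and neuronal form of this glycolytic enzyme) was at 33.4, 81.1 and 155 FPKM with saline and 2.15, 10.6 and 22.5 with DNBS and fell by 3.07 ± 0.52 (adjusted p = 0.00563). Sod3, the extracellular superoxide dismutase, fell by 3.04 ± 0.57 (adjusted p = 0.00903). Neither overlapped. The summed glial markers had a median of 3532 FPKM with DNBS and 6187 with saline, and their part in these falls was not tested.

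Further genes among the 15 largest falls included proteins of the cell surface. Tmprss5, a membrane serine protease, was at 127, 187 and 460.4 FPKM with saline and 1.88, 35.2 and 55.2 with DNBS (−3.0 ± 0.64, adjusted p = 0.0144). Slc22a17, a receptor for lipocalin 2, fell by 2.98 ± 0.60 (adjusted p = 0.0120, range 32.8 to 192 FPKM with saline and 0.92 to 22.5 with DNBS). Art3, which overlaps Cxcl10 on the opposite strand, fell by 3.0 ± 0.65 (adjusted p = 0.0156), and the imprinted gene Mest, which overlaps Copg2, by 2.95 ± 0.60 (adjusted p = 0.0121); the overlapping Cxcl10 and Copg2, named for the overlap, changed by −0.05 ± 0.48 and −0.08 ± 0.26 (adjusted p = 0.962 and 0.861). In these 4 genes the DNBS libraries lay below the saline libraries, and DNBS_GR159897 replicate 1 was the lowest. Lpar1, a receptor for lysophosphatidic acid that is known from myelinating glia, fell by 2.91 ± 0.64 (adjusted p = 0.0167) with overlapping groups. Nkain4 and the PDZ protein Tax1bp3 fell by 2.92 ± 0.84 and 3.05 ± 0.90 (adjusted p = 0.0438 and 0.0477). Nkain4 passed only without DNBS_GR159897 replicates 1, 2 or 3 (otherwise 0.0501 to 0.102), and Tax1bp3 only without DNBS_Vehicle replicates 1 or 3 (otherwise 0.0583 to 0.107).

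Among receptors for neurotransmitters, Tacr3, P2rx7 and P2rx2 fell. Tacr3, the neurokinin-3 receptor (chr3:134829007-134934579), was at 4.33, 5.62 and 9.69 FPKM with saline and at 0, 0.945 and 2.08 with DNBS, without overlap (−1.98 ± 0.31, adjusted p = 0.00342). It fell by 1.77 in the vehicle arm and by 2.18 in the GR159897 arm. Tacr2, the receptor that GR159897 blocks, was at 0.3, 1.09 and 2.50 FPKM with saline and 0.08, 1.71 and 7.22 with DNBS (0.26 ± 0.43, adjusted p = 0.735), Tacr1, the neurokinin-1 receptor, at 0.41 ± 0.29 (adjusted p = 0.374), and Tac1, which encodes substance P and neurokinin A, at 0.66 ± 0.49 (adjusted p = 0.401). Of the 5 tachykinin genes tested, Tacr3 was the only one past the threshold. P2rx7, an ATP-gated channel, fell by 1.65 ± 0.34 (adjusted p = 0.0122) from 3.86, 6.12 and 8.36 FPKM with saline to 0.18, 1.55 and 2.67 with DNBS without overlap. P2rx2, a channel of the same family, fell by 1.73 ± 0.46 (adjusted p = 0.0325) but did not pass without Saline_Vehicle replicates 1 or 3, DNBS_Vehicle replicates 2 or 3, or Saline_GR159897 replicate 1 (0.0501 to 0.0751). These were the 2 past the threshold among 8 purinergic genes, 5 of which were lower, as were 7818 of all 12777 genes.

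Fat4, a giant cadherin of planar cell polarity, was at 3.70, 6.09 and 10.8 FPKM with saline and at 0.06, 0.475 and 1.32 with DNBS, without overlap (−2.25 ± 0.27, adjusted p = 0.00126). It shares exon sequence with genes on the opposite strand, and 9 of 11 genes in its list of cadherins and adhesion molecules were lower with 2 past the threshold. The other was Cadm1, a synaptic adhesion protein (−1.54 ± 0.44, adjusted p = 0.0407), which passed only without Saline_Vehicle replicate 2, DNBS_Vehicle replicate 2, or DNBS_GR159897 replicate 3 (otherwise 0.0511 to 0.0860) and did not pass after quantile normalisation (0.0532). Wnt6, a secreted Wnt ligand, fell by 1.40 ± 0.33 (adjusted p = 0.0206) and did not pass without Saline_Vehicle replicate 3 or Saline_GR159897 replicate 1 (0.0509 to 0.0527). With a pseudocount of 0.1 its adjusted p was 0.0537. It was the only member past the threshold among 12 Wnt and BMP genes.

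Ribosomal protein genes were higher in 14 of 15, with 3 past the threshold and a median of 0.59. When scaled to the annotated total 7 were past it, after quantile normalisation 8, and 8 when DNBS_GR159897 replicate 1 was left out. Rps18 rose by 1.57 ± 0.34 (adjusted p = 0.0164), from 45.4, 64.0 and 80.5 FPKM with saline to 117, 202 and 311 with DNBS. Its groups did not overlap, and reads of such genes may be shared with their pseudogenes. Rpl22, the gene that carries the tag in these mice, was at 1.85, 7.31 and 9.61 FPKM with saline and at 13.1, 14.2 and 21.8 with DNBS. All DNBS libraries lay above all saline libraries. Its change of 1.17 ± 0.33 (adjusted p = 0.0408) passed only without DNBS_Vehicle replicate 2 or DNBS_GR159897 replicate 1 (otherwise 0.0503 to 0.0808). All cells make Rpl22, and the table does not tell its tagged from its untagged form.

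**Figure D4:**
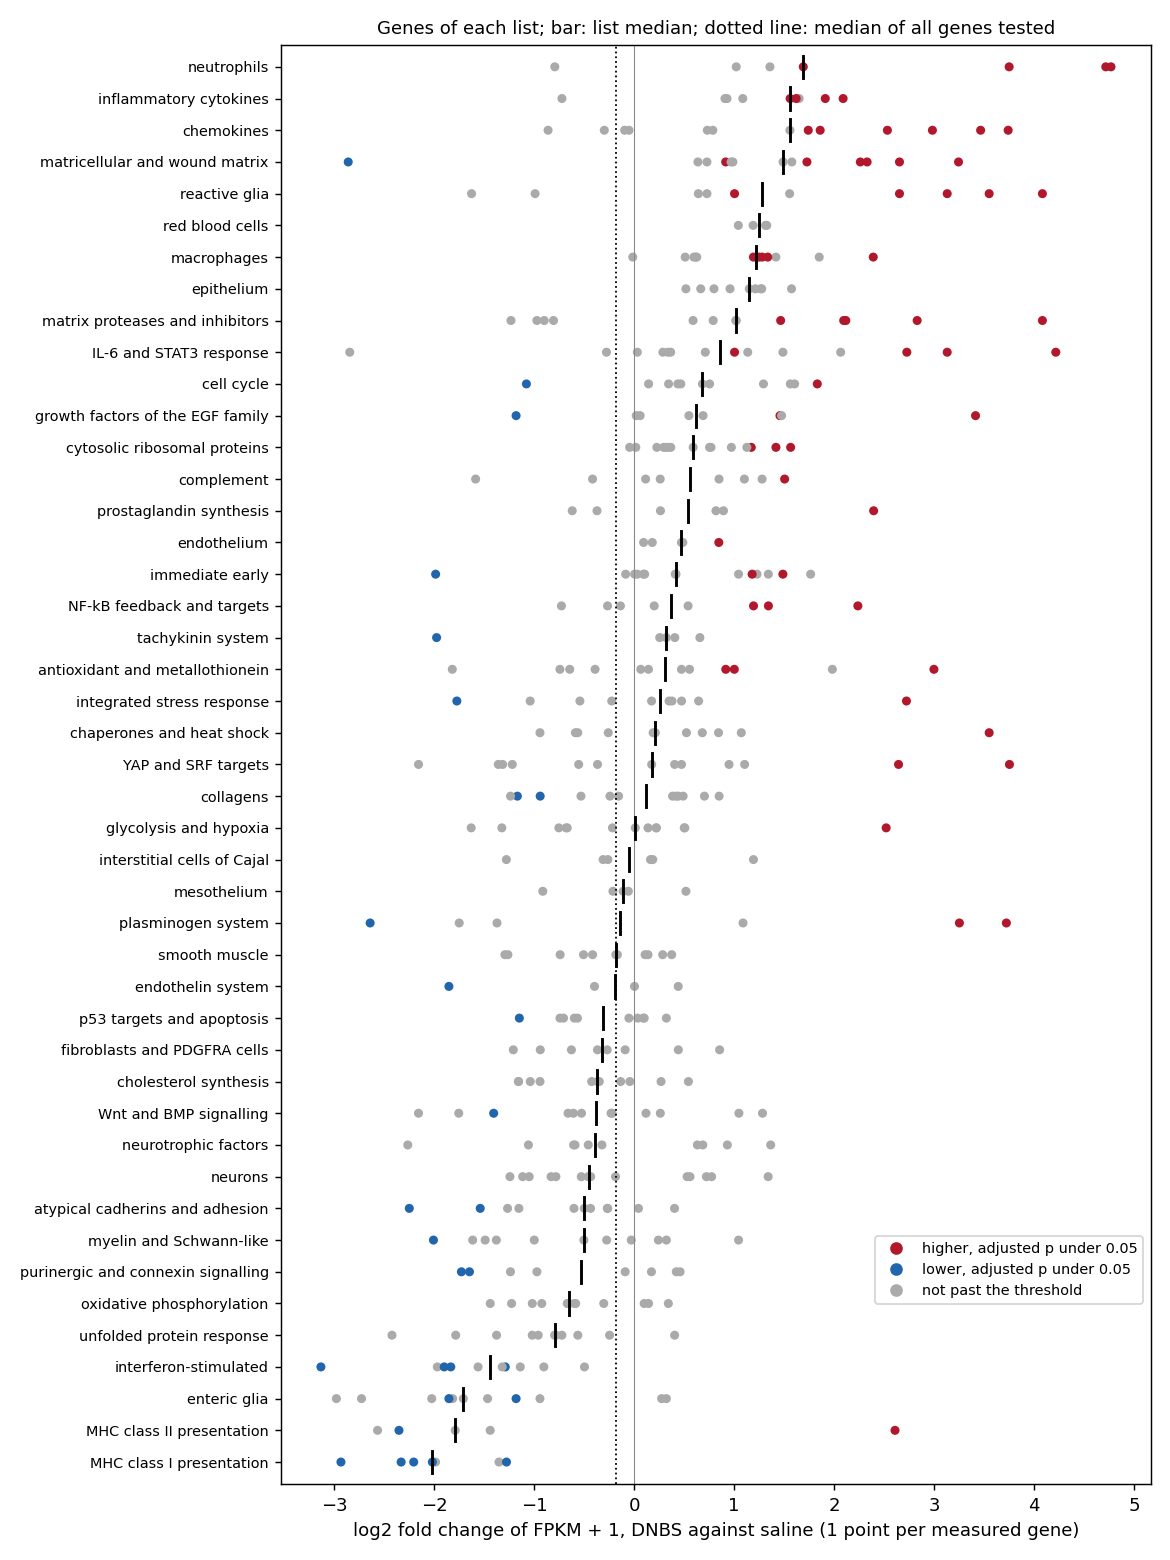
Log2 fold change of FPKM + 1 (horizontal axis, DNBS against saline over both drug arms) of each measured gene in the lists with at least 3 tested members; red and blue points passed the threshold of 0.05, grey points did not, the bar is the list's median and the dotted line the median of all genes (−0.18). Neutrophil genes (1.69), cytokines (1.56) and chemokines (1.56) have the highest medians. MHC class I (−2.02), MHC class II (−1.79) and enteric glia (−1.71) have the lowest. Of the neutrophil genes 4 of 7, of the cytokines 5 of 9 and of the chemokines 1 of 13 entered the test through DNBS libraries alone. Without such genes these 3 medians were 4.72 (3 genes), 1.29 (4) and 1.265 (12), and that of matricellular genes was 1.49 (11).

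The remaining lists held at most 2 genes past the threshold each. Their counts stand beside 4959 higher and 7818 lower among all 12777 genes. Of 11 genes of the unfolded protein response 10 were lower (median −0.79), with 0 past the threshold in limma and 4 at an unadjusted p under 0.05. Oxidative phosphorylation genes were lower in 10 of 13 (median −0.65; 0 past the threshold and 2 at an unadjusted p under 0.05) and cholesterol synthesis genes in 9 of 11 (0 and 3). Complement genes were higher in 6 of 8, C1qc past the threshold (1.51 ± 0.37, adjusted p = 0.0250). C1qc did not pass without Saline_Vehicle replicate 3, DNBS_Vehicle replicate 1, or Saline_GR159897 replicate 3 (0.0513 to 0.0618). Cell cycle genes were higher in 10 of 11, with the kinase Plk2 (1.83 ± 0.33, adjusted p = 0.00727) past it and the cyclin Ccnd2 lower and past it (−1.08 ± 0.30, adjusted p = 0.0388). Ccnd2 passed only without DNBS_Vehicle replicate 3 or DNBS_GR159897 replicate 1 (otherwise 0.0536 to 0.0951), and did not pass when scaled to the annotated total (0.0929) or after quantile normalisation (0.171). Of the 11 cell cycle genes 4 entered the test through DNBS libraries alone. Among 10 p53 and apoptosis genes Bbc3, which encodes the death protein PUMA, fell by 1.15 ± 0.27 (adjusted p = 0.0216) and did not pass without Saline_GR159897 replicate 1 (0.0540). The neurotrophic factors, with 4 of 10 higher, held 0 past the threshold and 3 at an unadjusted p under 0.05, and the endothelin genes only Ednrb. Markers of neurons (5 of 14 higher), smooth muscle (4 of 11), interstitial cells of Cajal (3 of 6), fibroblasts (2 of 8) and mesothelium (1 of 5) held 0 past the threshold, with 1, 0, 2, 2 and 1 at an unadjusted p under 0.05. Endothelial markers were higher in 5 of 5, Cdh5 past the threshold (0.85 ± 0.25, adjusted p = 0.0472). Cdh5 passed only without Saline_Vehicle replicate 2, DNBS_Vehicle replicate 3, or DNBS_GR159897 replicate 3 (otherwise 0.0546 to 0.102), and did not pass when scaled to the annotated total (0.0533) or as the average of the changes within the arms (0.0588).

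The DNBS change was set side by side in the drug arms, which share no libraries. In the vehicle arm 41 genes (0.321%) and in the GR159897 arm 176 (1.38%) were past the threshold. No gene called over both arms had opposite directions in them. The call rests on the average of the 2 arms, which selects against such genes, so this is no test of their likeness. The test of the difference between the arms called 0 of 12777 genes (0.0%) in limma, with 457 at an unadjusted p under 0.05 and a smallest adjusted p of 0.0514, with 2 genes when Saline_Vehicle replicate 1 or DNBS_Vehicle replicate 3 was left out and 1 when Saline_Vehicle replicate 2, DNBS_Vehicle replicate 2 or DNBS_GR159897 replicate 3 was. The differences named next therefore did not pass. Gdf15, a stress hormone induced by the integrated stress response, changed by 4.84 ± 0.66 in the vehicle arm and by 0.61 ± 0.66 in the GR159897 arm (unadjusted p of the difference = 0.000547, adjusted 0.874); over both arms it rose by 2.72 ± 0.74 (adjusted p = 0.0358). Klk6, a secreted protease, had 2.19 ± 0.33 and 0.34 ± 0.33 (unadjusted 0.00184), and Cxcl5 0.68 ± 0.38 and 2.80 ± 0.38 (unadjusted 0.00178). Serpinh1, the collagen chaperone Hsp47, had −0.70 ± 0.74 and −4.00 ± 0.74 (unadjusted 0.00794), and Rapsn, which clusters acetylcholine receptors, −0.28 ± 0.35 and −1.89 ± 0.35 (unadjusted 0.00665). DNBS_GR159897 replicate 1, the library apart, is 1 of the 3 DNBS libraries of the GR159897 arm. Over both arms Gdf15 passed only without Saline_GR159897 replicates 2 or 3, or DNBS_GR159897 replicates 1 or 2 (otherwise 0.0508 to 0.0758). Serpinh1 (−2.35 ± 0.67, adjusted p = 0.0427) passed only without Saline_Vehicle replicate 2 or DNBS_Vehicle replicate 2 (otherwise 0.0512 to 0.0883), and Rapsn (−1.08 ± 0.32, adjusted p = 0.0479) passed only without Saline_Vehicle replicate 2, or DNBS_Vehicle replicates 2 or 3 (otherwise 0.0691 to 0.110). Neither passed when scaled to the annotated total (0.0507 and 0.0595) or after quantile normalisation (0.0511 and 0.0723). Klk6 (1.26 ± 0.34, adjusted p = 0.0335) did not pass without Saline_Vehicle replicates 1, 2 or 3, or Saline_GR159897 replicate 3 (0.0519 to 0.0720) and was not tested without any 1 of the DNBS_Vehicle libraries, where it fell below the filter. Its entry through those 3 libraries alone favours the higher change in the vehicle arm.

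**Figure D5:**
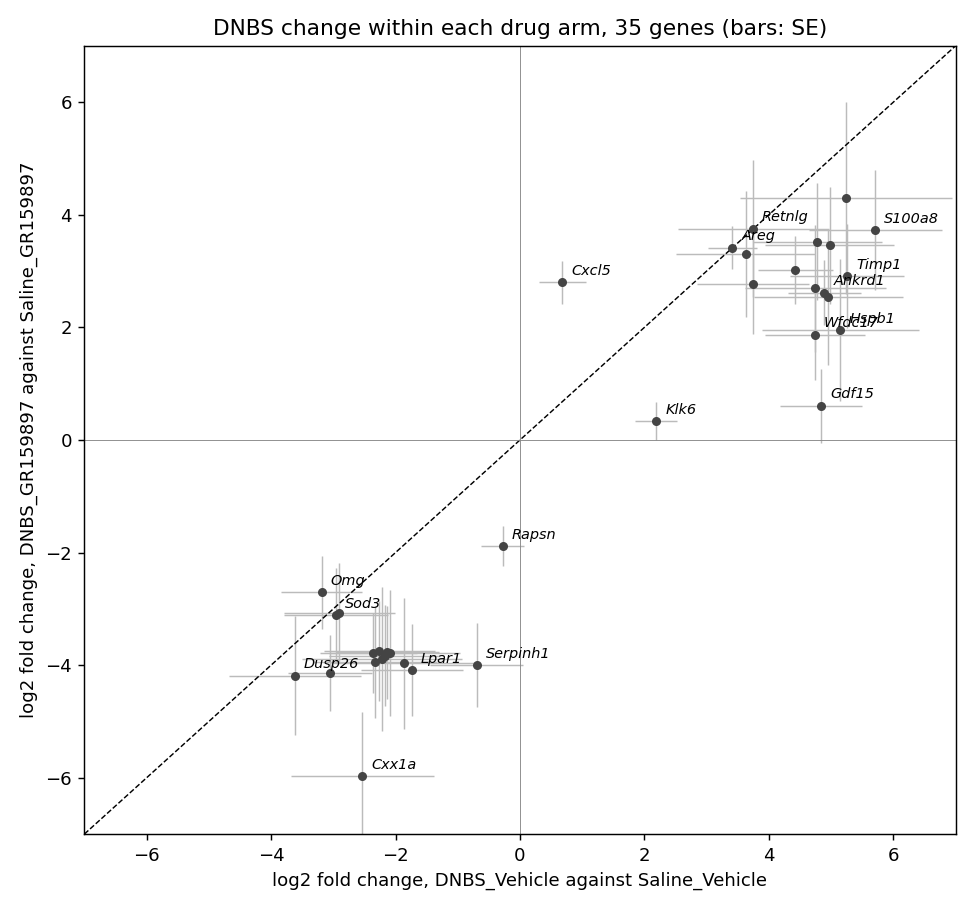
Log2 fold change of FPKM + 1 with DNBS in the vehicle arm (horizontal axis) and in the GR159897 arm (vertical axis) of 35 genes, the 15 with the largest rise, the 15 with the largest fall and the 5 with the smallest p of the difference between arms; bars are standard errors and the dashed line marks equal change. Areg lies on the line (3.42 in both arms), Gdf15 (4.84 and 0.61) and Serpinh1 (−0.70 and −4.00) lie far below it, and Cxcl5 (0.68 and 2.80) above it.

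With the annotated share as a covariate, 24 of the 103 genes named here that passed stayed past the threshold. Among the cytokines and chemokines these were Areg, Il6, Il11, Csf3, Lif, Ccl2, Ccl7 and Cxcl1, and among the regulators Pim1, Nfkbiz, Fosl1 and Plk2. The proteases and matrix genes Plaur, Thbs1, Timp1, Adamts1, Mmp3 and Tnc stayed, as did Ankrd1, Hspb1, Mt1, Ctss and Rps18. Fat4 was the only gene with a fall among the 24. Of the 79 that did not, 21 (15 rises and 6 falls) had a change at least as large as without the covariate, such as Saa3 (4.31), Gdf15 (3.66), Nfkb2 (1.79) and Cxx1a (−4.90). In 43 it was between 50% and the whole of that change. In 15, of which 14 were falls, it was under 50%, as in B2m (−0.46), Tax1bp3 (−0.26) and Nkain4 (−0.42). The share differed between the enemas, so its part and that of the enema cannot be told apart in this fit.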

How the data were processed

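Tagged-ribosome RNA was sequenced from 12 libraries (cDNA from 1 ng of RNA). The authors deposited 1 table of FPKM values per locus and library. The submitters' processing notes list cutadapt 1.10, FastQC 0.10.1, HISAT2 2.0 and StringTie 1.3; the genome build and whether strand was used are not given in the sources used here, so genes that overlap on opposite strands cannot be told apart. Of 99547 loci, 24432 carry a known mouse transcript. One row per gene symbol was kept (the highest mean; 38 rows left out), and 902 rows are merged loci. Gfap, with blank values, was not tested. Genes that reached 1 FPKM in 3 libraries or more were tested on log2(FPKM + 1), so fold changes are on that scale and understate changes of low genes. The test was limma 3.58.1 (R 4.3.3; trend and robust prior, two-sided, Benjamini-Hochberg over 12777 genes, 0.05) with enema and drug arm as terms and 9 residual degrees of freedom. The arms and their difference came from a group-mean fit with 8 residual degrees of freedom. Tables and figures were made with Python 3.11.15, pandas 2.3.3, numpy 2.4.6 and matplotlib 3.10.9.

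The genes named are the 15 largest rises and falls past the threshold without predicted genes, up to 4 members with the smallest p in each of 47 lists, the genes that check the labels (Sox10, S100b, Gfap, Tacr2, Rpl22), and the 5 called genes with the smallest p of the difference between arms. Some genes this rule names are not reported here. The comparison and the lists were chosen with earlier results of these data known. Alternatives were another pseudocount, filter, scaling, covariate, model or locus set, a sex term, a replicate block and leaving out each library. Promoters are from RefSeq (GRCm38.p6) and gene positions from GENCODE on GRCm38. Sex-linked genes matched the labels in 12 of 12 libraries, and 0 pairs of libraries held identical values. The labels name no separate batches, litters or dates, and p-values measure only the spread between these libraries.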

Additional observations from a re-analysis of the deposited data

Results flagged for a closer look

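Of 106 groups of 6 libraries checked, 25 held 1 library far from the nearest of the others (Dixon's test on log2(value + 1)), where chance gives about 1 in 20. DNBS_GR159897 replicate 1 was that library in 14. It had the lowest summed FPKM of markers of enteric glia (35.0), myelin and Schwann cells (14.3), reactive glia (103), neurons (52.7), smooth muscle (313) and fibroblasts (62.2), and the highest of lymphocytes (3.01). It also had the lowest DNBS value of Timp1 (23.4 FPKM), Hspb1 (37.6), Tmprss5 (1.88), Art3 (0.54), Mest (0.20), Nkain4 (0.44) and S100b (1.17).

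Saline_GR159897 replicate 3 had the highest saline value of S100a9 (6.09 FPKM), S100a8 (5.59), Wfdc21 (4.80), Cxcl2 (4.90) and Cxcl5 (1.11). Saline_GR159897 replicate 2 had the lowest saline value of Tax1bp3 (83.2 FPKM) and B2m (357), and DNBS_GR159897 replicate 2 had the highest DNBS value of Omg (6.05). The lowest saline values of Rpl22 (1.85 FPKM) and Sox10 (15.4) were in Saline_GR159897 replicate 1 and Saline_Vehicle replicate 2, and Saline_Vehicle replicate 3 had the highest saline sum of lymphocyte markers (0.94).

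Loci without an annotated transcript, which the comparison leaves out, took a median of 39.5% of the summed FPKM with DNBS and of 13.9% with saline.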

How the results depend on the processing

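Of 1306 genes past the threshold (375 higher, 931 lower), none changed direction under any setting run. The counts were 554, 178 and 376 with no filter on low values, 173, 128 and 45 with the annotated share as a covariate, 574 higher and 570 lower after quantile normalisation, 575 lower with unannotated loci tested too, and 676 higher with library weights. Scaled to the annotated total without DNBS_GR159897 replicate 1, a setting added after seeing the data, 563 were higher. Leaving out 1 library gave 541 to 1430 genes (162 to 552 higher, 367 to 899 lower), with the lowest total without Saline_Vehicle replicate 3, and 0 to 2 genes for the difference between the arms. The causes were not tested.

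With the replicate numbers as a block 1140 genes passed (336 higher, 804 lower), 1056 of them among the 1306, and 0 for the difference between the arms. The labels give the numbers no shared source, the correlation of deviations between libraries with the same number was −0.09 to 0.20 over 18 pairs (2 over 0.1), and 5 of 12 libraries correlated best with their own number, so the numbers were not treated as pairs. Of the 103 named genes that passed, 24 passed with the share covariate, 61 with no filter, 82 with a sex term, 86 with the block, 88 with a pseudocount of 0.1, 93 when scaled to the annotated total, and 60 in all fits that left out a library. Among values that had not passed, 2 changed sign: S100b (0.20) with the share covariate, and Tacr2 (−0.081) without DNBS_Vehicle replicate 2, whose range over the fits that left out a library was −0.081 to 0.50. Depth is unknown, so values near 0 have no counting error.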
